A study of Mus musculus with 12 samples.

Results

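The genes described here build and tension the actin cortex, the layer of actin filaments and non-muscle myosin under the plasma membrane. There were 10 of them: the cytoplasmic actins Actb and Actg1, the filament regulators Cfl1 and Pfn1, the myosin heavy chains Myh9 and Myh10, the light chains Myl6 and Myl9, and the GTPases Rhoa and Cdc42. A probe was assigned to a gene by its gene name in the files or by its RefSeq accession. By this rule 9 of the 10 genes had a probe, out of 22410 named genes on the array, with 18 probes of 41174. Actg1 had none. For 2 further probes the file's description reads gamma cytoplasmic actin (Actg), with an accession that the gene table does not hold, and they are reported apart from the members.

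Profiles came from 12 single blastomeres, isolated as sister pairs from 6 mouse embryos at the 2-cell stage. Females of the CF-1 strain were mated naturally, and embryos were flushed from the oviducts at about 36 h post coitus and split by micromanipulation. The labels give no difference in genotype or treatment between the samples. Experiment 2 held pairs D, G and H and experiment 1 held pairs D, I and L, with 6 cells each, and the letter D names different embryos in the 2 experiments. The cells of a pair are numbered 1 and 2, and the labels do not say what the numbers stand for. Poly(A) RNA went through 2 rounds of amplification per cell before hybridisation to an Agilent whole mouse genome array.

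In early mouse embryos the cortex drives the cleavage furrow, sets cell tension and later takes part in compaction and polarisation. Actin monomers add to filaments under the control of profilin, and cofilin severs and disassembles older filaments. Non-muscle myosin II is made of heavy chains with essential and regulatory light chains and pulls on these filaments. RhoA turns the motor on through the regulatory light chain, and Cdc42 directs the nucleation of new filaments.

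Signals are log2 values of the processed intensity divided by the array's 75th percentile, so 0 is the level of that percentile. A common floor of -4.12 was set, at which values have no order. Because a probe's brightness depends on its sequence, values are compared between cells for 1 probe and never between probes. The 2 experiments differ in dye (Cy3 in experiment 2, Cy5 in experiment 1), in scan protocol and in slides. A difference between the experiments therefore cannot be told apart from these. Between 31.2% and 78.8% of the spots were well above background on the arrays of experiment 2 and 22.1% to 41.7% in experiment 1. Oocyte and 2-cell markers were well above background for 13 to 15 of 15 genes on every array, and their summed scaled signal was 54.4 to 83.2 in experiment 2 and 51.2 to 88 in experiment 1. Of 14 tested genes of this list 2 were lower and 2 higher in experiment 2. For 18 smooth muscle and stroma markers the sum was 1.54 to 3.86 in experiment 2 and 15.5 to 89.2 in experiment 1. For 11 oviduct epithelium markers it was 0.33 to 1.75 in experiment 2 and 8.73 to 66.1 in experiment 1. For 11 blood and macrophage markers it was 0.155 to 1.09 in experiment 2 and 5.82 to 257 in experiment 1. For 12 cumulus and granulosa markers the sums were 0.265 to 1.74 in experiment 2 and 0.117 to 1.11 in experiment 1. In experiment 2 Acta2, Col1a1, Sparc, Ovgp1, Krt8, Wfdc2 and Csf1r were at the floor in all 6 cells. The floor is not absence, as Krt8 was well above background on 4 of these arrays. Lower in experiment 2 were 5 of 10 tested oviduct epithelium genes and 2 of 6 tested blood and macrophage genes, and none was higher. Epcam, Cdh1, Foxj1, Pax8 and Cldn3 did not pass. Lyz2 was at 7.77 in cell 1 of pair L of experiment 1, the cell with the blood and macrophage sum of 257. The part of RNA from other cells in the results below was not tested.

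The promoters of 3 members hold a CArG box, the binding motif of serum response factor, which is known to drive many actin and myosin genes. RefSeq windows from 250 bases before to 50 bases after a transcript start were available for 9 of the 10 members, all but Actb, 11 windows in all (GRCm38.p6). The box was searched on both strands and was found in 535 of 32851 windows, or 1.63%. The TATA box, searched as TATAAA on either strand, was in 13.6% of all windows and in windows of Cdc42, Myh9 and Rhoa. No window of a member held both motifs. The boxes are shown in capitals with 30 bases on each side, 5′ to 3′ on the gene's strand, because the 3 genes include the light chains described below.
Actg1, chr11:120348546-120348615, minus strand, upstream of the gene: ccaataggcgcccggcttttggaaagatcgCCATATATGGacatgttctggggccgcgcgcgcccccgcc
Myl6, chr10:128493020-128493089, minus strand, within the gene before a later transcript start: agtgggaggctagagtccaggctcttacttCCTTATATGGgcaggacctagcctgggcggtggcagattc
Myl9, chr2:156775273-156775342, plus strand, upstream of the gene: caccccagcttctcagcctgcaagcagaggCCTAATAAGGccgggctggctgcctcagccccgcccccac
The box began 90 bases before the transcript start in Actg1, 50 in Myl6 and 161 in Myl9. The other Myl6 window, at the start of the gene, held no box. The 3 copies differ within the A/T core, and a match describes the letters of a window only.

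Of the 18 member probes, 16 were well above background on at least 6 arrays and were tested, and 6 were well above background on all 12, where 14.2% of all probes were so. The first comparison asked how the members differ between embryos of the 2 experiments. In experiment 2 Actb, Cfl1, Myh9, Myl6 and Myl9 were lower by their brightest probes, and Rhoa was lower by 1 of its 2 probes. In all, 7 of the 16 tested member probes passed, for 6 genes, all of them lower in experiment 2. Over the whole array 8.10% of 16694 tested probes passed, 4.15% lower and 3.95% higher in experiment 2. The test was limma with embryo as a random block and Benjamini-Hochberg adjustment over all tested probes. The median difference was -0.46 over the 16 member probes and 0.19 over all tested probes, on the log2 scale. The 6 cells of experiment 2 all lay below the 6 of experiment 1 for 5 of the 16 member probes, those of Actb, Cfl1, Myh9 and Myl9 and the second of Rhoa. Over the array the experiments did not overlap for 7.66% of tested probes, and experiment 2 was the lower for 3.97%. Values at the floor make a fold smaller than it may be.

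Actb encodes beta-actin, the main building block of cortical filaments (chr5:142903115-142907976, GRCm38.p6). Its brighter probe had a lowest, median and highest signal of -2.73, -1.61 and -0.79 in experiment 2, against 0.43, 1.25 and 2.21 in experiment 1. The groups did not overlap. All 6 cells of experiment 1 were above 0, the 75th percentile of the probes well above background on every array. All 6 of experiment 2 were below it. The fitted difference was -3.00 ± 0.43 (SE), 8.02-fold lower in experiment 2 (limma, adjusted p = 0.00184). The second Actb probe, matched through a different accession, was dim in all cells, at -4.12, -3.83 and -2.97 in experiment 2 and -4.12, -3.86 and -3.58 in experiment 1. It differed by 0.15 ± 0.26 (adjusted p = 0.776), so the Actb probes did not give the same picture.

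The brighter of the 2 probes described as gamma cytoplasmic actin, the other actin of non-muscle cells, was at -4.12, -3.73 and -2.90 in experiment 2, against -2.71, -1.76 and -0.95 in experiment 1. The groups did not overlap, and the difference was -1.90 ± 0.38, 3.74-fold lower in experiment 2 (limma, adjusted p = 0.00999). It was well above background on 10 arrays. Without pair G of experiment 2 the difference was -1.81 with an adjusted p of 0.0693. It did not pass either with the percentile of all probes (-1.39, adjusted p = 0.482), a lower floor (0.0556), a floor per array (0.0812) or the deposited values (0.0586). The other probe was well above background on 5 arrays and was not tested.

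Cfl1 encodes cofilin-1, which severs actin filaments and returns monomers to the pool (chr19:5490455-5494031). Its brighter probe was at -0.85, 0.07 and 0.70 in experiment 2, against 2.34, 2.84 and 3.65 in experiment 1, with no overlap. The difference was -2.94 ± 0.39, 7.70-fold lower in experiment 2 (limma, adjusted p = 0.00127). A second, dim Cfl1 probe was at -4.12, -3.66 and -2.84 in experiment 2 and -4.12, -3.02 and -1.75 in experiment 1, a difference of -0.50 ± 0.54 (adjusted p = 0.643). Pfn1 encodes profilin-1, which carries actin monomers to growing filament ends. Its single probe was well above background on 8 arrays, at -4.12, -4.12 and -3.44 in experiment 2 and -4.12, -3.88 and -2.29 in experiment 1. Its difference of -0.41 ± 0.42 did not pass (adjusted p = 0.622), and most of its values lay at or near the floor.

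Myh9 encodes the heavy chain of non-muscle myosin IIA (chr15:77760585-77842175). Its brighter probe was at -0.95, -0.38 and 0.29 in experiment 2, against 1.38, 2.50 and 2.59 in experiment 1. The groups did not overlap. The difference was -2.65 ± 0.30, 6.30-fold lower in experiment 2 (limma, adjusted p = 4.1e-04). The second Myh9 probe was well above background on 2 arrays and was at the floor in all 12 cells. Myh10 encodes the heavy chain of myosin IIB, the close relative of IIA. Its brightest probe was at -2.97, -2.34 and -1.10 in experiment 2 and -4.12, -2.67 and -0.85 in experiment 1, and the groups overlapped. The difference was 0.45 ± 0.70 (adjusted p = 0.742) for this probe and 0.23 ± 0.28 (adjusted p = 0.68) for the second, and the third was well above background on no array. Whether Myh9 and Myh10 differ in their response was not tested.

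Myl6 encodes the essential light chain of non-muscle myosin II (chr10:128490859-128493886). Its first probe was at 0.30, 1.35 and 2.22 in experiment 2, against 2.14, 3.29 and 4.67 in experiment 1. The highest cell of experiment 2 lay just above the lowest of experiment 1, so the groups overlapped. The difference was -2.06 ± 0.50, 4.16-fold lower in experiment 2 (limma, adjusted p = 0.0265). The second probe gave 0.01, 1.03 and 1.88 in experiment 2 and 1.57, 2.77 and 4.24 in experiment 1, a difference of -1.83 ± 0.51 (adjusted p = 0.0474). Without any 1 of pairs D or I of experiment 1 or G or H of experiment 2 the first probe no longer passed, with adjusted p-values of 0.142, 0.0631, 0.0629 and 0.0724 in that order. Leaving out a single cell had the same effect for either cell of pair D or cell 1 of pair L of experiment 1, and for cell 2 of pair G of experiment 2. The second probe passed in 5 of 29 alternatives. Both Myl6 probes followed each other closely over the 12 cells (Pearson r = 0.99 after centring within experiment).

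Myl9 encodes a regulatory light chain that is abundant in smooth muscle and also present in non-muscle cells (chr2:156775408-156781657). Its probe was at -4.12, -3.74 and -2.99 in experiment 2, with 3 of 6 cells at the floor, against -2.28, 2.26 and 3.80 in experiment 1. The groups did not overlap, but experiment 1 spanned a wider range than for any member above. The difference was -4.75 ± 1.04, 27.0-fold lower in experiment 2 (limma, adjusted p = 0.0161). Without pair L of experiment 1 it was -6.39, without pair I -3.88 and without pair D -3.99. The call was lost without pair D (adjusted p = 0.103) or pair I (adjusted p = 0.0728) of experiment 1, and without pair G (adjusted p = 0.0865) or pair H (adjusted p = 0.0596) of experiment 2.

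Rhoa encodes the GTPase that activates myosin II at the furrow and cortex (chr9:108306160-108337943), and its probes went opposite ways. The first was at -3.82, -2.00 and -1.91 in experiment 2 and -4.12, -2.90 and -2.29 in experiment 1, a difference of 0.82 ± 0.48 that did not pass (adjusted p = 0.399). The second was at -4.12, -4.12 and -3.96 in experiment 2, with 5 of 6 cells at the floor, against -3.25, -2.18 and -1.30 in experiment 1, with no overlap. Its difference was -1.91 ± 0.32, 3.76-fold lower in experiment 2 (limma, adjusted p = 0.00408). With the mean of both probes Rhoa differed by -0.54. No direction is therefore given for Rhoa as a gene.

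Cdc42 encodes the GTPase that steers actin nucleation and polarity (chr4:137319696-137357759). Its brightest probe was at -0.42, 0.31 and 1.05 in experiment 2 and 0.05, 0.59 and 1.03 in experiment 1. The groups overlapped over most of their range, and the difference was -0.24 ± 0.28 (adjusted p = 0.667). The second Cdc42 probe was at -3.99, -2.29 and -1.71 in experiment 2, against -4.12, -4.06 and -3.78 in experiment 1, a difference of 1.34 ± 0.40 that did not pass (adjusted p = 0.0636). Leaving out a cell or embryo moved it between 0.97 and 1.94, and it passed as higher in experiment 2 without pair H of experiment 2 or either cell of that pair. The third was at -4.12, -3.80 and -3.27 in experiment 2, with 3 of 6 cells at the floor. In experiment 1 all 6 of its cells were at the floor. It differed by 0.38 ± 0.20 (adjusted p = 0.354). Over the 12 cells, after centring within experiment, the first probe ran against the second (Pearson r = -0.79) and the third (-0.77), while the second and the third ran together (0.83). With the third probe r rests on the cells of experiment 2, and the second probe had 3 of 6 cells of experiment 1 at the floor.

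**Figure D1:**
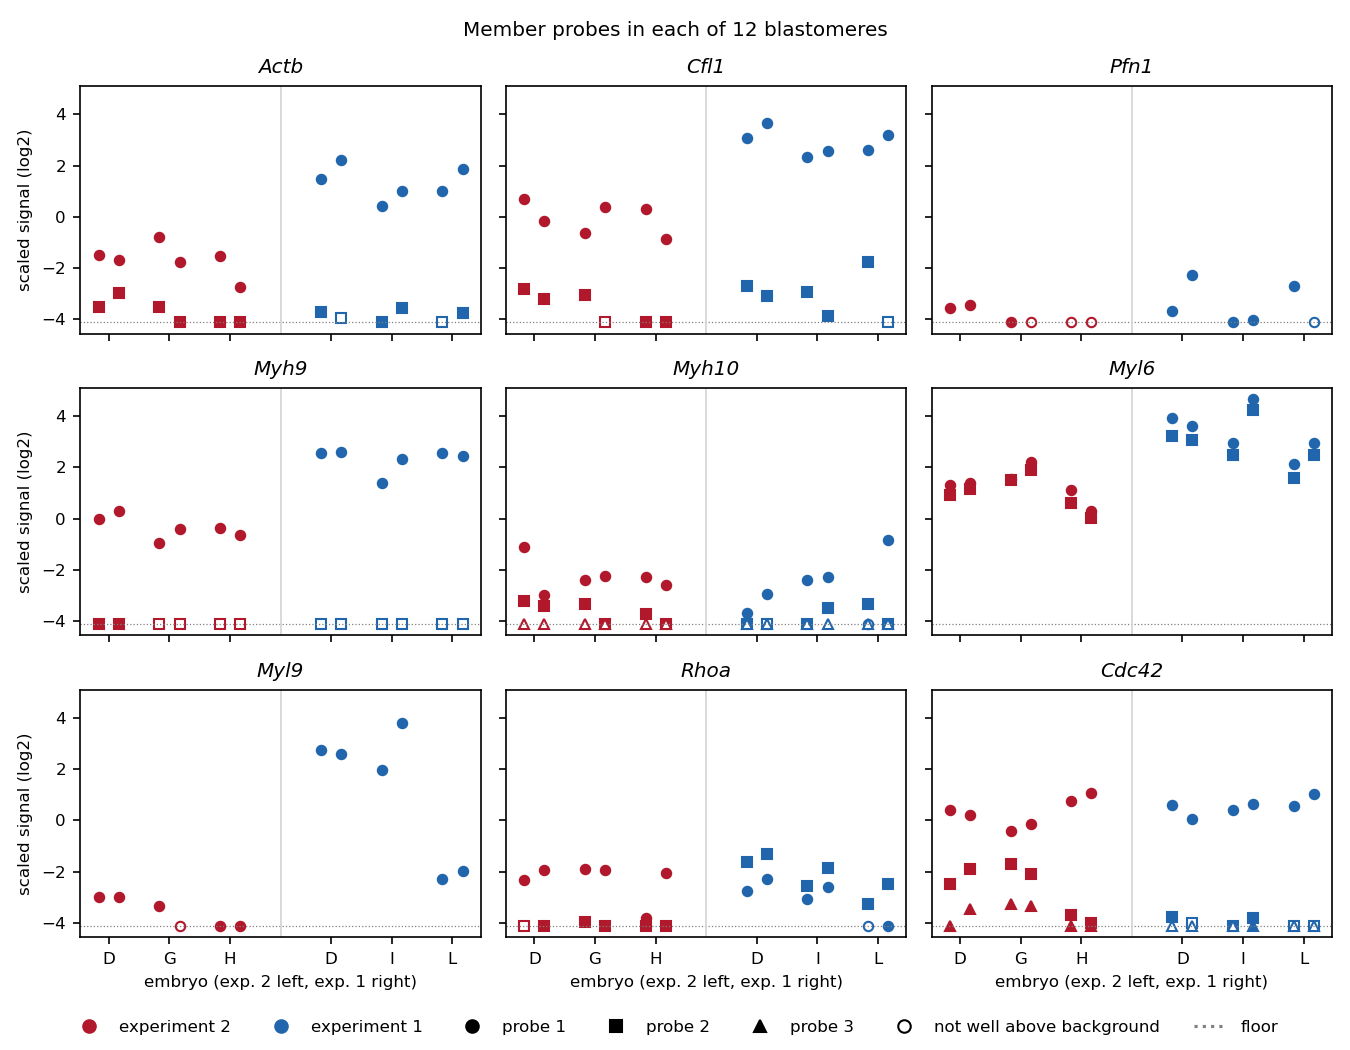
Scaled log2 signal of all 18 member probes in 12 blastomeres, 1 panel per gene, with embryos along the x axis (experiment 2 left, experiment 1 right; within an embryo cell 2 left of cell 1), marker shape for the probe and open markers where the spot was not well above background. The brightest probes of Actb, Cfl1 and Myh9 separate the experiments in every cell, Myl9 is high in pairs D and I of experiment 1, and the brightest Cdc42 probe lies between -0.42 and 1.05 in all 12 cells.

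**Figure D2:**
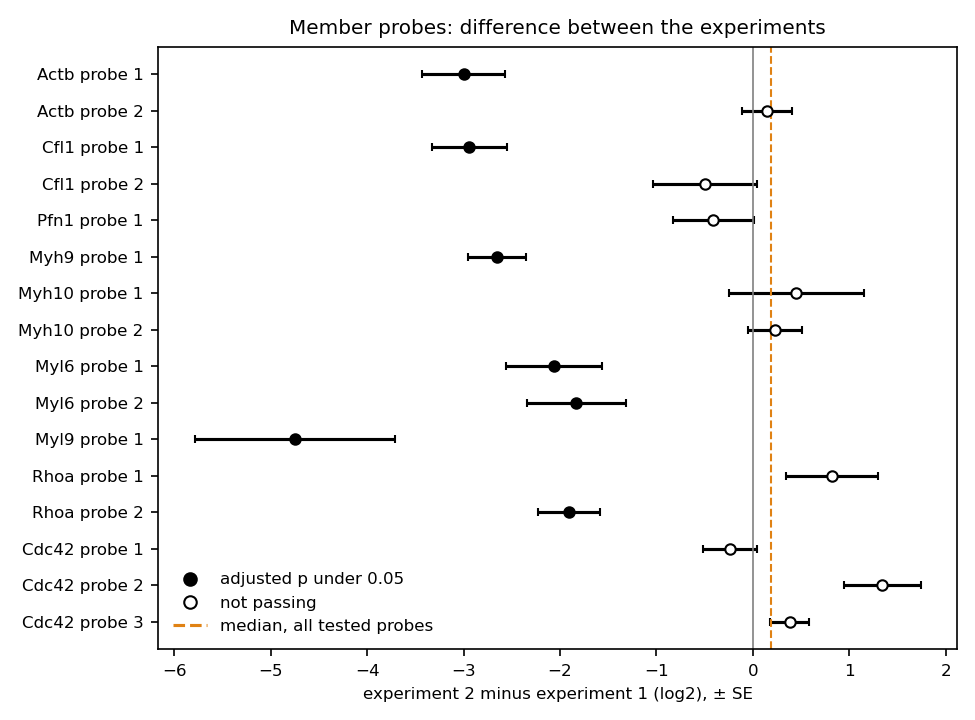
Difference experiment 2 minus experiment 1 (log2, points, with bars for ± 1 SE) of the 16 tested member probes, filled where the adjusted p was under 0.05, with the median of all tested probes (0.19) as a dashed line. The 7 passing probes all lie below 0, from -4.75 for Myl9 to -1.83 for the second Myl6 probe.

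These calls did not all hold across settings. With slide as a random block 4 member probes passed, those of Actb, Cfl1, Myh9 and the second Rhoa probe. With the 2 cells of an embryo averaged 3 passed, those of Actb, Cfl1 and Myh9. When arrays were scaled by the 75th percentile of all probes, Actb alone passed (adjusted p = 0.0473), with Myh9 at 0.0504 and Cfl1 at 0.0979. With a lower floor, a floor per array, the deposited values or normexp 5 passed and both Myl6 probes did not (adjusted p = 0.0661 to 0.0941 for the first). With quantile normalization 8 passed, the 7 and the second Cdc42 probe, which was higher in experiment 2 (1.14, adjusted p = 0.0362). As means over all tested probes of the gene Actb differed by -1.43 and Cfl1 by -1.72, and both passed. In each of the 6 other scalings, floors or background corrections all 7 probes stayed below the median of all tested probes, with differences from it of -6.44 to -0.96 log2 units. That median was 0.19 here, between -0.11 and 0.09 in 5 of those settings, and -0.76 with normexp background correction. The split of calls over the whole array moved as well. It was 693 lower and 660 higher here, 151 and 22 with the percentile of all probes, 386 and 210 with a lower floor, 274 and 94 with a floor per array, 375 and 200 with the deposited values, 373 and 54 with normexp, and 802 and 973 with quantile normalization.

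The second comparison asked whether cells of an embryo resembled each other and embryos differed within an experiment. Myl9 and the second Cdc42 probe passed, 2 of the 16 tested member probes, where 1.40% of all tested probes did so (limma moderated F test over 4 embryo contrasts). At an unadjusted p under 0.05 this test had 4983 of 16694 probes, and 4 of the 16 member probes. For Myl9 the high cells were those of pairs D and I of experiment 1. In experiment 2 cells 2 and 1 gave Myl9 signals of -3.00 and -2.99 for pair D and -3.35 and -4.12 for pair G, and both cells of pair H were at the floor. In experiment 1 cells 2 and 1 gave 2.74 and 2.58 for pair D, 1.95 and 3.80 for pair I, -2.28 and -1.99 for pair L. Pair I exceeded pair L 32.2-fold on the same slide. Pair D exceeded pair L 27.7-fold but lay on another slide, so embryo and slide cannot be told apart there. The adjusted p was 0.043 over all embryo contrasts. Over the embryos that share a slide the adjusted p was 0.126, in experiment 1 alone 0.267 and in experiment 2 alone 0.125. It was 0.0506 to 0.119 without 1 cell of pair D of either experiment or of pair H of experiment 2. Cells of an embryo differed by 0.52 log2 units on average (SD 0.71, n = 6 pairs), and cells of different embryos of an experiment by 2.16 (SD 2.05, n = 24 pairs that share cells).

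Levels of smooth muscle and stroma markers are given beside those of Myl9. In experiment 1 Tagln, which encodes the actin-binding protein transgelin, gave 1.91 and 1.72 in cells 2 and 1 for pair D, 1.63 and 3.42 for pair I, -1.37 and -1.18 for pair L. Acta2, smooth muscle actin, gave 1.71 and 0.35 for pair D, 0.76 and 3.04 for pair I, -1.44 and -2.95 for pair L, in the same order of cells. Between embryos neither passed (adjusted p = 0.0547 for Tagln and 0.0965 for Acta2), and Col1a1 (0.0461) was the 1 gene of the list's 15 tested that did. All 4 cells of pairs D and I lay above both cells of pair L for 7 of the 18 markers, and Vim, Lgals1, Dcn and Cnn1 were among the others. The whole list of 18 markers summed to 46.9 and 39 for pair D, 27 and 89.2 for pair I, 15.5 and 21.3 for pair L. Between experiments 10 of its 15 tested genes were lower in experiment 2 and none was higher. Tagln differed by -4.99 (adjusted p = 0.00256) and Acta2 by -4.37 (adjusted p = 0.012). The contractile markers Myh11 and Cnn1 did not pass, with differences of 0.21 (adjusted p = 0.827) and -0.42 (adjusted p = 0.605). Nor did the muscle markers Des (0.62, adjusted p = 0.46), Lmod1 (-0.41, adjusted p = 0.81) and Smtn (0.5, adjusted p = 0.372). The part of these cells' RNA in the Myl9 signal was not tested.

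**Figure D3:**
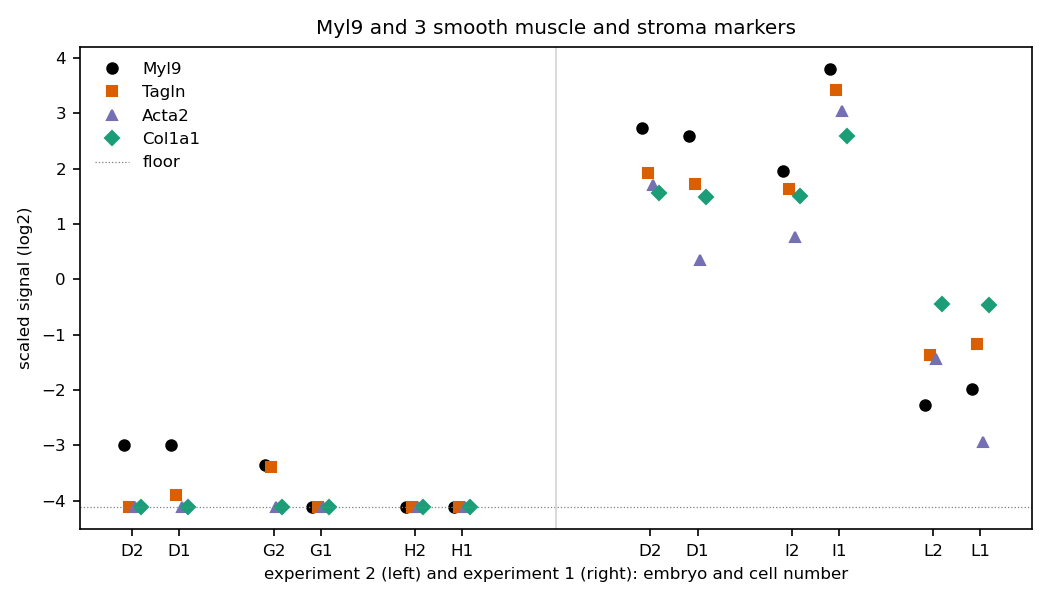
Scaled log2 signal of Myl9 and of the smooth muscle and stroma markers Tagln, Acta2 and Col1a1 in the 12 blastomeres, experiment 2 left and experiment 1 right, named by embryo and cell number, with the floor as a dotted line. These 4 genes are higher in pairs D and I than in pair L of experiment 1, an order that 7 of the 18 markers of the list share, and in experiment 2 these 4 lie between the floor and -2.99.

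The second Cdc42 probe differed between embryos of experiment 2. Cells 2 and 1 gave -2.49 and -1.91 for pair D, -1.71 and -2.10 for pair G, -3.71 and -3.99 for pair H, so pair H was the low embryo. Pair G exceeded pair H 3.85-fold on the same slide. Pair D, on another slide, exceeded pair H 3.14-fold, and embryo and slide cannot be told apart there. The adjusted p was 0.0497 over all embryo contrasts (limma moderated F test). In experiment 2 alone the adjusted p was 0.0615 and over embryos that share a slide 0.0868. It was 0.0614 to 0.177 without 1 cell of pair D or I of experiment 1 or of pair H of experiment 2, or without cell 1 of pair D of experiment 2. In experiment 1 all 6 cells were between -4.12 and -3.78. The brightest Cdc42 probe ran the other way, with 0.40 and 0.22 for pair D, -0.42 and -0.14 for pair G, 0.74 and 1.05 for pair H, and did not pass (adjusted p = 0.116).

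For the other members embryos were not told apart from the spread between their cells. The adjusted p was 0.40 for Actb, 0.594 for Cfl1, 0.214 for Myh9 and 0.26 for Myl6. Cells of an embryo differed in Actb by 0.76 on average (SD 0.34, n = 6 pairs) and cells of different embryos of an experiment by 0.75 (SD 0.54, n = 24). For Cfl1 these averages were 0.73 and 0.66, and for Myh9 0.37 and 0.53. Myh10 held the widest gap within an embryo: pair L of experiment 1 had cell 2 at the floor and cell 1 at -0.85, 3.27 apart.

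A further comparison set cell 2 against cell 1 of each embryo. Of the 16 member probes 0 passed, and 0% of all tested probes did so (limma with embryo as a block). At an unadjusted p under 0.05 the test had 737 of 16694 probes, and 1 of the member probes, the second of Cfl1 (0.86 ± 0.31). In experiment 2 Actb signals of cells 2 and 1 were -1.48 and -1.67 for pair D, -0.79 and -1.78 for pair G, -1.54 and -2.73 for pair H. In experiment 1 those of cells 2 and 1 were 1.48 and 2.21 for pair D, 0.43 and 1.02 for pair I, 1.02 and 1.87 for pair L. Cell 2 was thus the higher in all 3 embryos of experiment 2 and the lower in all 3 of experiment 1, a pattern that 1.59% of all tested probes had in either orientation. The cell difference of Actb was 1.52 ± 0.32 greater in experiment 2 (limma interaction, unadjusted p = 0.00396, adjusted p = 0.912) and did not pass. Over the array 0% of probes passed this interaction test either, with 879 at an unadjusted p under 0.05, among them Actb and the second Rhoa probe (0.66 ± 0.22).

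**Figure D4:**
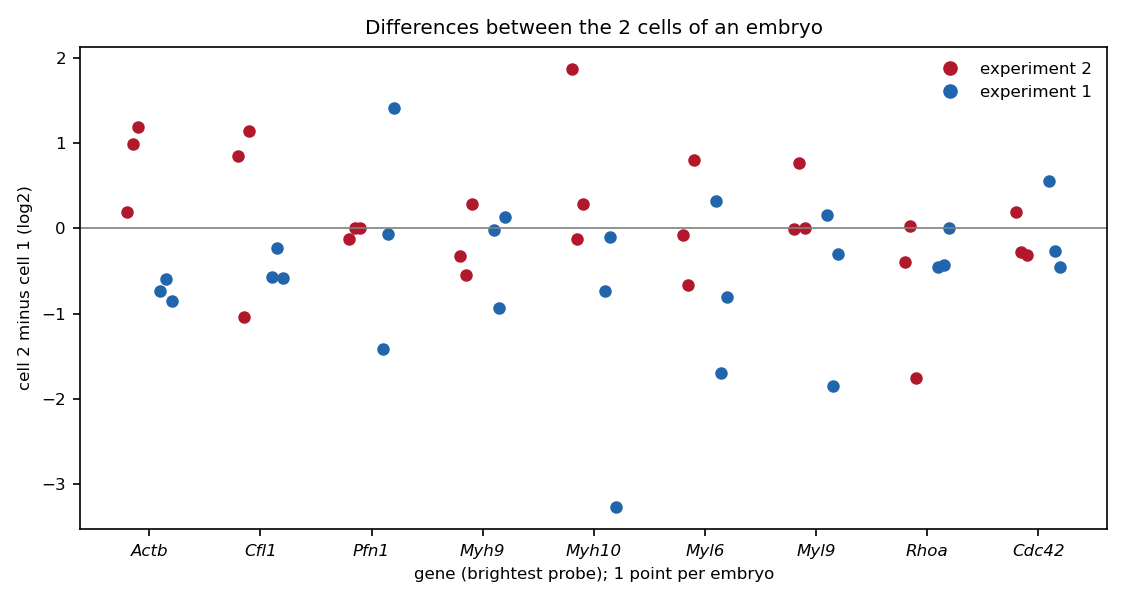
Difference cell 2 minus cell 1 (log2) of the brightest probe of 9 member genes, 1 point per embryo, experiment 2 left of experiment 1 for each gene. Actb is the gene whose 3 embryos lie above 0 in experiment 2 (0.19 to 1.19) and below 0 in experiment 1 (-0.85 to -0.59), and the widest difference is that of Myh10 in pair L of experiment 1 (-3.27).

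The members were set beside 124 other genes of the cortex, of which 121 were on the array and 105 were tested by their brightest probe. In experiment 2 11 of them were lower and 2 higher, where 4.85% of all 11936 tested genes were lower and 4.28% higher by the same rule. The median difference was -0.06 over the list and 0.19 over all tested probes. Scaling changed the counts: lower and higher calls were 4 and 0 with the percentile of all probes, 13 and 4 with quantile normalization, and 6 to 8 and 0 in the other 4 settings. Of the genes named below, all but Spire1 kept their direction in all 6 of these settings. Flna and Tmsb4x passed in 6 of them, Zyx, Gsn and Arpc1b in 5 and Capzb in 4. Ssh1 passed in 3, Actn4 in 1 and Spire1 in 0. Between embryos 0 of the 105 genes passed, where 1.31% of all 11936 tested genes did so. Between cells 2 and 1 of an embryo 0 of the 105 passed, where 0% of all tested probes did so. At an unadjusted p under 0.05 the list had 27 genes between embryos and 2 between cells. Over the array these counts were 4983 and 737 of 16694 probes.

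Among crosslinkers and membrane linkers 3 of 18 tested genes were lower in experiment 2 and none was higher. Flna, encoding the crosslinker filamin A, averaged -3.23 ± 0.90 in experiment 2 and 1.31 ± 1.00 in experiment 1 (SD, n = 6 each), 23.3-fold lower (limma, adjusted p = 0.00184), by 1 of its 2 tested probes. Zyx, encoding the focal adhesion protein zyxin, averaged -3.35 ± 0.58 in experiment 2 and 0.80 ± 0.85 in experiment 1, 17.7-fold lower (adjusted p = 9.6e-04). Actn4, encoding the crosslinker alpha-actinin-4, was 2.86-fold lower (adjusted p = 0.00685).

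Of 19 tested genes for actin turnover, capping and monomer binding 5 were lower and none was higher. Tmsb4x, encoding the monomer-binding peptide thymosin beta 4, averaged -3.57 ± 0.36 in experiment 2 and -0.63 ± 0.75 in experiment 1, 7.64-fold lower (adjusted p = 0.00238). Gsn, encoding the severing protein gelsolin, was 5.81-fold lower (adjusted p = 0.00741). The capping subunit Capzb was 3.24-fold lower (adjusted p = 0.00232), and Ssh1, a phosphatase that activates cofilin, was 3.28-fold lower (adjusted p = 0.00678) by 1 of 2 tested probes.

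Branching and nucleation genes had 1 lower and 1 higher of 20 tested. Arpc1b, a subunit of the Arp2/3 complex, averaged 0.44 ± 0.32 in experiment 2 and 2.51 ± 0.55 in experiment 1, 4.21-fold lower (limma, adjusted p = 0.00244). Spire1, an actin nucleator, was 1.51-fold higher (adjusted p = 0.0467) by 1 of 2 tested probes. It lay close to the floor and differed by -0.19 to 1.79 over other scalings. Of 21 tested myosins, light chains and their regulators 1 was lower and none was higher.

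Within experiments, the members did not follow 1 common order of cells. After centring within experiment, Pearson's r over the 12 cells was 0.57 between the brightest probes of Actb and Cfl1, 0.59 between Cfl1 and Myh9 and 0.71 between Myl6 and Myl9. Between Actb and Myl9 it was 0.02. By brightest probes the highest r between members was 0.73 (Myl9 and Rhoa) and the lowest -0.53 (Rhoa and Cdc42). These are descriptions of 12 cells, in which cells of an embryo share a slide and all genes of a cell share 1 amplification. The genes most like Myl9 among 11927 were Dact2, Tagln, Cited4 and Col1a1 (r from 0.96 to 0.97). Within the 6 cells of experiment 2 r was 0.54, 0.40 and 0.54 for the first 3, and Col1a1 was at the floor there, while within experiment 1 it was 0.98 to 0.99 for all 4. Those most like Actb among 4753 were Tmem103, 6430548M08Rik, Ccdc86 and Vps50 (r from 0.85 to 0.93).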

How the data were processed

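The files of the 12 arrays hold spot intensity; per the file headers, the authors ran Agilent Feature Extraction (version 9.1.3.1). The deposited value table holds the same intensity values on a linear scale, divided by 1 constant per array. The labels name Cy3 throughout, but in experiment 1 the signal lay in Cy5, which was used there.

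Outlier spots were left out, spots of a probe averaged, and signals divided by the array's 75th percentile (taken over 5858 probes that every array detected well above background), raised to a floor of 0.0574 and put on the log2 scale. The 16694 probes detected in this sense on 6 or more arrays entered the tests, run with limma 3.58.1 in R 4.3.3. The threshold was an adjusted p under 0.05, and the code was tested on simulated data. A gene was represented by its brightest probe. Other cortical genes were named if among the 4 smallest adjusted p of their list, and likeness was Pearson's r. Members, lists and named-gene rules were chosen with earlier results of these data known. The p-values between experiments take in the spread between these embryos, and 6 embryos limit the precision of all tests. For differences between embryos the error was the spread between the cells of an embryo. For cell number and its interaction with experiment the error was the variation of the cell difference over embryos. Alternatives covered scaling, floor, background correction, the probe filter, blocks, leave-one-out and the probe of a gene. Some results for the other cortical genes are not reported here.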

Additional observations from a re-analysis of the deposited data

Results flagged for a closer look

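The 3 values here met Dixon's criterion for a value far from the other cells of its experiment. Chance meets it in about 1 of 20 groups without values tied at the floor. Myh9 (brightest probe) was at 1.38 in cell 2 of pair I of experiment 1, below the other 5 cells. The first Rhoa probe was at -3.82 in cell 2 of pair H of experiment 2, also the lowest. The second Rhoa probe was at -3.96 in cell 2 of pair G of experiment 2, where the other 5 cells were at the floor. With these tied, any value above the floor meets the criterion, so nothing is read from it.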

How the results depend on the processing

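The difference between experiments kept its direction in all alternatives for Actb (adjusted p under 0.05 in 30 of 30), Cfl1 (29 of 30), Myh9 (29 of 30), Myl9 (22 of 29) and Myl6 (15 of 30). Member probes passing were 7; they were 1 with the percentile of all probes, 4 with slide as a random block, 5 with a lower floor, a floor per array, the deposited values or normexp, 8 with quantile normalization, 3 with cells averaged, and 4 to 7 leaving out a cell or embryo (4 without pair D or I of experiment 1 or G of experiment 2). For embryos 2 passed; this was 1 with the percentile of all probes, a floor per array or quantile normalization, 4 with normexp, 0 with a lower floor, the deposited values, probes on all 12 arrays, either experiment alone or embryos sharing a slide, and 0 to 3 leaving out a cell (0 without either cell of pair D of experiment 1 or H of experiment 2, or cell 1 of pair D of experiment 2). With cell number as a replicate block 6 passed between experiments and 0 between embryos. The numbers did not pair samples: of 15 embryo pairs 3 had correlated cell differences over 0.1. Cell number and its interaction gave 0 in each setting run.

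Values that changed sign had not passed, and the cause was not tested. Between experiments these were the second Actb probe (-0.20 percentile of all probes, -0.14 lower floor and deposited values, -0.18 floor per array, -0.17 quantile, -0.93 normexp, -0.09 to 0.34 leave-one-out), Myh10 (-0.30 normexp; second probe -0.72), the third Cdc42 probe (-0.48 normexp), Rhoa (-0.54) and Cdc42 (0.49) as means of probes, and Cdc42 (-0.53 to 0.06 leave-one-out). For cell 2 minus cell 1 they were Actb (-0.48 percentile of all probes, -0.73 experiment 1 alone, -0.03 mean of probes, -0.20 to 0.21 leave-one-out), Cfl1 (0.05 quantile, 0.32 experiment 2 alone, 0.39 mean of probes, -0.31 to 0.12), Pfn1 (0.58 lower floor, 0.42 floor per array, 0.45 deposited, 0.28 normexp, -0.32 to 0.24), Myl9 (0.69, 0.41, 0.60 and 0.25 in the same settings, 0.25 experiment 2 alone, -0.40 to 0.13), Myh10 (0.67 experiment 2 alone, -0.79 to 0.24) and Myl6 (0.02 experiment 2 alone). For the interaction they were Pfn1 (0.60 percentile of all probes, 1.69 lower floor, 1.36 floor per array, 1.43 deposited, 0.36 quantile, 1.16 normexp, -0.71 to 0.70), Myh9 (-0.04 quantile, -0.24 to 0.28), Rhoa (0.12 mean of probes, -0.78 to 0.11) and Cdc42 (-0.28 to 0.22). Dim probes limit what can be read: 10 of 16 tested were not above background on every array.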
